A study of Mus musculus with 24 samples.

Results

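Intercalated cells are the acid-base cells of the kidney's connecting tubule and collecting duct, and 10 genes that mark them or carry out their acid-base transport were followed across the study. The 10 were named by symbol: Slc4a1 (ENSMUSG00000006574), Slc26a4 (ENSMUSG00000020651), Foxi1 (ENSMUSG00000047861), Aqp6 (ENSMUSG00000043144), Atp6v1g3 (ENSMUSG00000026394), Atp6v0d2 (ENSMUSG00000028238), Atp6v1b1 (ENSMUSG00000006269), Atp6v0a4 (ENSMUSG00000038600), Rhcg (ENSMUSG00000030549) and Slc4a9 (ENSMUSG00000024485). All 10 were found among the 28450 features of the expression table, each as a single row, and all 10 were among the 13020 features expressed highly enough to be tested (at least 1 FPKM in at least 6 libraries). FPKM divide a transcript's fragments by its length and by the library's mapped total, so levels of different genes can be set side by side.

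Whole kidneys of C57BL/6 mice were sequenced in 4 groups of 6 libraries: wild type given saline, wild type given glyoxylate (Gly), Nlrp3 knockout (written NLPR3-/- in the labels) given saline, and Nlrp3 knockout given Gly. Gly was given into the peritoneum at 75 mg/kg per day in 200 µl, on days 1 to 7, and kidneys were taken after 7 days. The series concerns calcium oxalate nephrocalcinosis, in which crystals settle in the kidney, and the body turns glyoxylate into oxalate. The labels give neither age nor sex, and they name separate samples without saying that each is a separate animal, so a p-value here speaks only to how far these samples scatter.

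Type A intercalated cells secrete acid: a proton pump (the vacuolar ATPase, or V-ATPase) in the membrane facing the urine moves protons out, and the anion exchanger AE1, encoded by Slc4a1, returns bicarbonate to the blood. Type B and non-A non-B cells carry pendrin, encoded by Slc26a4, which moves bicarbonate into the urine in exchange for chloride. The transcription factor Foxi1 is needed for intercalated cells to form, and mutations in the human counterparts of Foxi1, Slc4a1, Atp6v1b1 and Atp6v0a4 cause distal renal tubular acidosis, a disorder in which kidney stones and nephrocalcinosis are common.

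The sequencing depth is unknown because the table holds no counts. The sum of FPKM lay between 439749 and 539018 per library, and no pair of libraries held identical values. The targeted gene, Nlrp3, averaged 0.572 ± 0.224 FPKM in Gly wild type and 0.129 ± 0.00910 in Gly knockout (SD, n = 6 each), with ranges of 0.361 to 0.896 and 0.119 to 0.144 that did not overlap. Under saline it averaged 0.0663 in wild type and 0.0961 in knockout, too low to check the labels. Transcripts of 4 Y-linked genes (Uty, Kdm5d, Eif2s3y and Ddx3y) were almost absent from 5 of the 6 saline knockout libraries, and were present in saline knockout library 4 and in all libraries of the other 3 groups. Comparisons among saline wild type, Gly wild type and Gly knockout are therefore given first. In any comparison with saline knockout, genotype or Gly and the difference in Y-linked transcripts cannot be told apart. In bulk tissue, fewer intercalated cells and less RNA per cell cannot be told apart either.

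The promoters of 2 pump subunits are shown because Foxi1 belongs to the forkhead factors, which bind sequences such as TGTTTAC, and because the transcripts of both subunits changed with Gly as described below. The 250 bases before the annotated start were taken from RefSeq on build GRCm38.p6, a build the authors' files do not name, and 7 of the 10 genes were found in that table. Capitals mark a match to any of 4 forkhead motifs, searched on both strands: TGTTTAC and TGTTTGC and TATTTAC and TATTTGC. The 4 motifs have the same length and different letters, so no 2 can match at the same place on a strand. Atp6v1b1 lies on the plus strand (chr6:83742767-83743016) and Atp6v0a4 on the minus strand (chr6:38124587-38124836).
Atp6v1b1: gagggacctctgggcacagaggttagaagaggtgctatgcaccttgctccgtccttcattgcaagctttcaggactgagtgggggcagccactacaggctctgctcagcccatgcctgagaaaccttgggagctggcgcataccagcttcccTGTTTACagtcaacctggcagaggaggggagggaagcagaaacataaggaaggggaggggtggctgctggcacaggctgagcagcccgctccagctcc
Atp6v0a4: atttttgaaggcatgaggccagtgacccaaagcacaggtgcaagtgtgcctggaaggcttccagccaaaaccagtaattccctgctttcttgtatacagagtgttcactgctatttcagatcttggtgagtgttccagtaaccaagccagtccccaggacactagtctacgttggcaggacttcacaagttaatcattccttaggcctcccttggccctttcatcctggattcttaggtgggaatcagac
The match in Atp6v1b1 begins 98 bases before the start. It was the only match in the 7 promoters, while 11.9% of all 32851 promoter windows of this length held at least 1. These are letter matches and not measured binding.

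In saline wild-type kidneys the 10 genes lay between 9.46 and 76.8 FPKM on average. Atp6v0a4, the a4 subunit of the pump's membrane part found in intercalated cells and proximal tubule, was highest at 76.8 ± 7.11 FPKM (SD, n = 6). It was followed by Atp6v1b1 (41.2 ± 4.06), the B1 subunit of the part that splits ATP, Rhcg (37.9 ± 5.84), an ammonia channel, and Aqp6 (30.9 ± 2.27), an aquaporin of vesicles in type A cells. Slc26a4 was at 19.5 ± 3.54, Atp6v1g3 (the G3 subunit) at 14.3 ± 1.56, Slc4a9 (the type B exchanger AE4) at 14.2 ± 2.36, Atp6v0d2 (the d2 subunit) at 10.4 ± 1.12, Foxi1 at 9.48 ± 1.61 and Slc4a1 at 9.46 ± 0.768. Neighbours in this order had overlapping ranges, except that Atp6v0a4 lay above Atp6v1b1, Aqp6 above Slc26a4, and Slc26a4 above Atp6v1g3 without overlap.

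**Figure D1:**
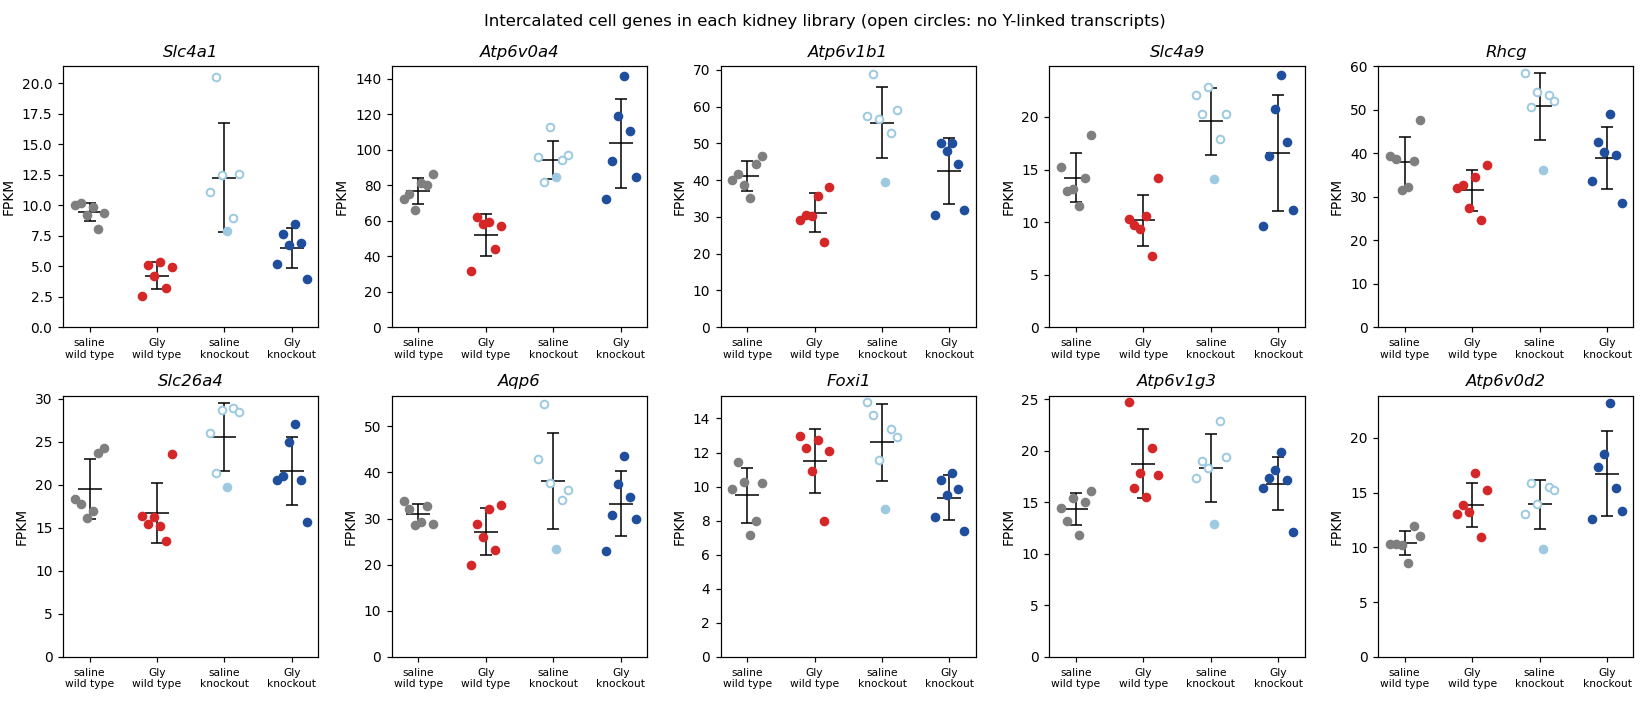
FPKM of the 10 genes in each of 24 kidney libraries, by group; horizontal bars are group means and error bars 1 SD (n = 6), and open circles are the 5 saline knockout libraries without Y-linked transcripts. Slc4a1 and Atp6v0a4 in Gly wild type lie below every saline wild-type library, and Atp6v0a4 in Gly knockout lies above every Gly wild-type library.

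Under Gly, wild-type kidneys had less transcript for the type A bicarbonate exchanger and for 2 subunits of the proton pump. Slc4a1 was at 8.08, 9.62 and 10.2 FPKM (lowest, median and highest library) under saline and at 2.59, 4.55 and 5.33 under Gly. The groups did not overlap. The Gly mean was 0.446 of the saline mean, and the log2 change was -1.03 ± 0.18 (SE, limma adjusted p = 2.31e-05). Atp6v0a4 was at 66.2, 77.5 and 86.2 FPKM under saline and at 31.7, 57.5 and 62.1 under Gly. Here too every Gly library lay below every saline library. It fell by 0.58 on the log2 scale (SE 0.15, limma adjusted p = 0.00151).

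Atp6v1b1 and Slc4a9 fell with overlapping groups. Atp6v1b1 was at 35.3, 40.9 and 46.5 FPKM under saline and at 23.3, 30.4 and 38.2 under Gly (log2 change -0.40 ± 0.14 SE, limma adjusted p = 0.0133). Slc4a9 was at 11.6, 13.6 and 18.3 FPKM under saline and at 6.78, 9.97 and 14.2 under Gly (log2 change -0.46 ± 0.18 SE, limma adjusted p = 0.0260). Gly libraries 4 and 6 reached into the saline range of Atp6v1b1, and Gly library 6 into that of Slc4a9.

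Atp6v1g3 and Atp6v0d2 rose. Atp6v1g3 was at 11.9, 14.7 and 16.1 FPKM under saline and at 15.5, 17.7 and 24.7 under Gly (log2 change 0.36 ± 0.12 SE, limma adjusted p = 0.0143). Atp6v0d2 was at 8.56, 10.3 and 11.96 under saline and at 10.97, 13.6 and 16.8 under Gly (log2 change 0.38 ± 0.13 SE, limma adjusted p = 0.0125). The median of all tested features shifted by 0.26 in this comparison, and both rises were close to it. After median-ratio scaling, which sets the typical feature to no change, they were 0.058 and 0.082 and neither was called (adjusted p = 0.742 and 0.535).

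The other 4 genes did not pass the test, at log2 changes of -0.26 (Rhcg, limma adjusted p = 0.0783), -0.21 (Slc26a4, 0.175), -0.20 (Aqp6, 0.282) and 0.25 (Foxi1, 0.0907). Pendrin was at 16.1, 18.1 and 24.3 FPKM under saline and at 13.5, 15.8 and 23.6 under Gly, with library 6 far above the other 5 under Gly. In all, 4 of the 10 genes fell and 2 rose, beside 13.3% of all tested features called lower and 50.2% called higher. The median log2 change was -0.24 over the 10 genes and 0.26 over all tested features. After median-ratio scaling 7 of the 10 were lower and 0 higher, beside 28.3% and 29% of all tested features. Foxi1, at -0.038, Atp6v1g3 and Atp6v0d2 were the 3 not called. Groups did not overlap in 2 of the 10 genes, both lower, beside 7.6% of features lower and 31.3% higher without overlap.

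Wild-type Gly libraries 1 and 5 held the lowest values of 9 of the 10 genes in their group, library 1 of 3 and library 5 of 6. Library 1 also held the highest values of 2 genes, Foxi1 (12.95 FPKM) and Atp6v1g3 (24.7 FPKM). Without libraries 1 and 5, Slc4a1 was at -0.83 (adjusted p = 0.000364), Atp6v0a4 at -0.37 (0.0157) and Atp6v0d2 at 0.47 (0.00431), all still called. Atp6v1b1 (-0.29, adjusted p = 0.0815), Slc4a9 (-0.35, 0.106) and Atp6v1g3 (0.23, 0.105) were not, and Foxi1 was (0.32, 0.0295). Slc4a9 was also not called without saline library 6 (-0.39, adjusted p = 0.0689).

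**Figure D2:**
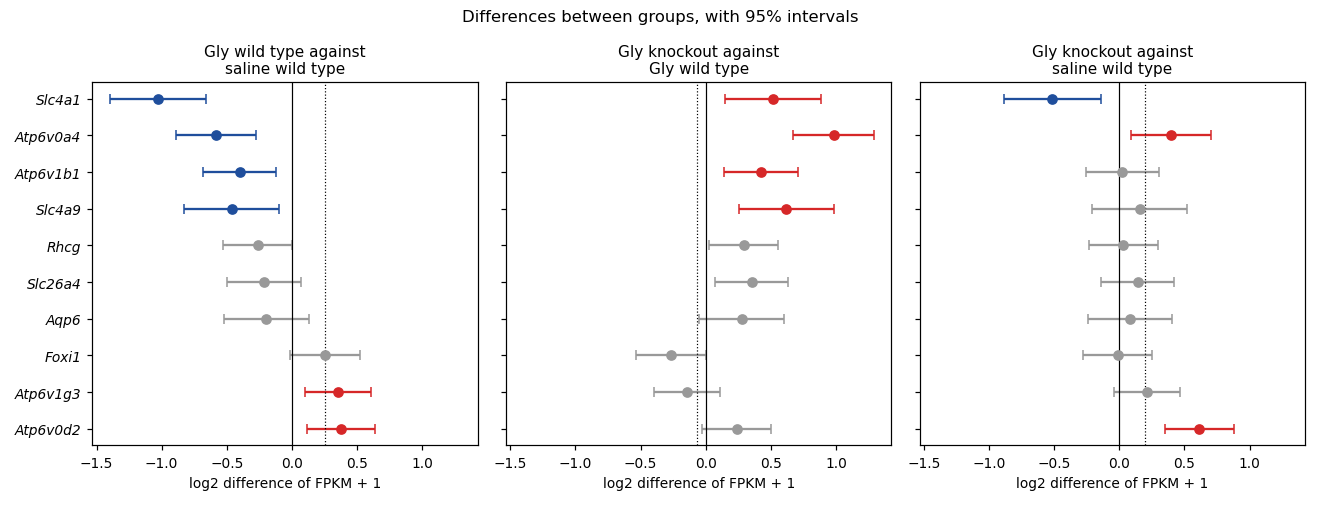
Log2 differences of FPKM + 1 for the 10 genes in 3 comparisons among groups whose libraries all express Y-linked genes; points are limma estimates, bars are 95% intervals, colour marks an adjusted p under 0.05 (blue lower, red higher), and the dotted line is the median of all tested features. Slc4a1 lies at -1.03 in the left panel and Atp6v0a4 at 0.98 in the middle one.

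Slc4a1 is also the band 3 gene of red blood cells, and transcripts of red cells were lower under Gly. The summed FPKM of 10 erythroid markers ran from 403 to 2625 in saline wild type and from 82.1 to 605 in Gly wild type, and 5 of the 6 tested were lower. Of the 10 markers, 3 never reached 1 FPKM in any library, the membrane gene Rhag among them. Across the saline wild-type libraries Alas2, the heme synthesis gene of red cell precursors, ranged from 1.51 to 11.4 FPKM while Slc4a1 ranged from 8.08 to 10.2. Saline wild-type libraries 2 and 6 had the lowest Alas2, at 1.51 and 1.94 FPKM, and had Slc4a1 at 10.2 and 9.38. The part of red cells in the change of Slc4a1 was not tested beyond these values.

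The a4 subunit gene Atp6v0a4 is also used in the proximal tubule, so markers of that segment were examined. The summed FPKM of 8 proximal tubule markers was 1897 to 2609 in saline wild type, 954 to 1421 in Gly wild type, 1675 to 2657 in saline knockout and 1825 to 2458 in Gly knockout. Of the 8, 5 were lower in Gly wild type than in saline wild type and 6 were higher in Gly knockout than in Gly wild type, and none was at 0. Between Gly knockout and saline wild type, 1 of the 8 was higher and 1 lower (median -0.053), while Atp6v0a4 was higher (0.40). After median-ratio scaling 0 of the 8 were higher and 4 lower there, and Atp6v0a4 was not called (0.14). Slc34a1, the main phosphate transporter of that segment, averaged 1365 ± 177, 621 ± 98.9, 1166 ± 261 and 1112 ± 203 FPKM in the same order (SD, n = 6 each). The part of the proximal tubule in the changes of Atp6v0a4 was not tested.

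The d2 subunit gene Atp6v0d2 is also used by macrophages and osteoclasts. Macrophage markers were higher in Gly wild type in 10 of 10, with a summed FPKM of 36.1 to 62.4 under saline and 270 to 771 under Gly. In Gly knockout the macrophage sum was 143 to 423, with 10 of 10 markers lower than in Gly wild type, while Atp6v0d2 averaged 16.7 ± 3.87 FPKM there and 13.9 ± 1.99 in Gly wild type (SD, n = 6 each). A list of 7 lysosome and fusion genes of macrophages and osteoclast-type cells summed to 31.1 to 37.1 FPKM in saline wild type, 43.4 to 65.3 in Gly wild type, 25.2 to 38.8 in saline knockout and 34.9 to 63.6 in Gly knockout. Of the 5 that could be tested, 4 rose in Gly wild type: the protease genes Ctsk, from 0.754 ± 0.207 to 6.24 ± 1.67 FPKM, and Mmp12, from 0.209 ± 0.0639 to 4.16 ± 1.94, and Trem2, from 0.0612 ± 0.101 to 4.77 ± 1.86, and Gpnmb, from 0.0718 ± 0.0456 to 1.32 ± 0.775 (SD, n = 6 each). Acp5, at 33.5 ± 2.15 and 34.4 ± 6.67 FPKM, did not pass the test. The fusion genes Dcstamp and Ocstamp, too low to test, averaged 0.0200 and 0.0205 FPKM under saline and 0.157 and 0.0382 under Gly. The part of these cells in the rise of Atp6v0d2 was not tested.

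Other intercalated cell genes were examined as a separate list of 18, of which 17 could be tested. In Gly wild type 6 were lower and 3 higher (median log2 change -0.21), beside 13.3% and 50.2% of all tested features. Oxgr1, the receptor for 2-oxoglutarate in type B and non-A non-B cells, fell from 6.70 ± 0.363 to 3.53 ± 1.05 FPKM (SD, n = 6; log2 change -0.80, adjusted p = 5.55e-05), and Insrr, a sensor of alkaline pH in the same cells, fell by 0.60 on the log2 scale (adjusted p = 0.00140). Car2, the cytosolic carbonic anhydrase, rose by 0.41 (adjusted p = 0.000531), or by 0.10 after median-ratio scaling (adjusted p = 0.347). P2ry14, a receptor for UDP-glucose, rose by 0.61 (adjusted p = 0.000946) and by 0.40 after that scaling (adjusted p = 0.00870). With that scaling 11 of the 17 were lower and 1 was higher.

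The V-ATPase subunits that most cells use were a list of 18. Of these, 11 were higher in Gly wild type and 1 was lower (median log2 change 0.22), and 2 were higher and 5 lower after median-ratio scaling, with the median at -0.096. Over all tested features 50.2% were higher and 13.3% lower with a median of 0.26, so the count for these subunits lay near that of the whole table. Atp6v1c1, the C1 subunit, rose by 0.73 (adjusted p = 6.63e-10) and Tcirg1, the a3 subunit of lysosomes and osteoclasts, by 0.87 (adjusted p = 7.79e-06). Both were also called after that scaling, at 0.42 and 0.58 (adjusted p = 0.000858 and 0.000177). Markers of principal cells, the water and sodium cells beside intercalated cells, had 1 of 11 lower (Aqp3, -0.75, adjusted p = 0.000396) and 1 higher (Hsd11b2, 0.38, adjusted p = 0.0182), with a median of 0.026. After median-ratio scaling 4 of the 11 were lower and 0 higher, Hsd11b2 was at 0.063 (adjusted p = 0.662), and the median was -0.27.

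**Figure D3:**
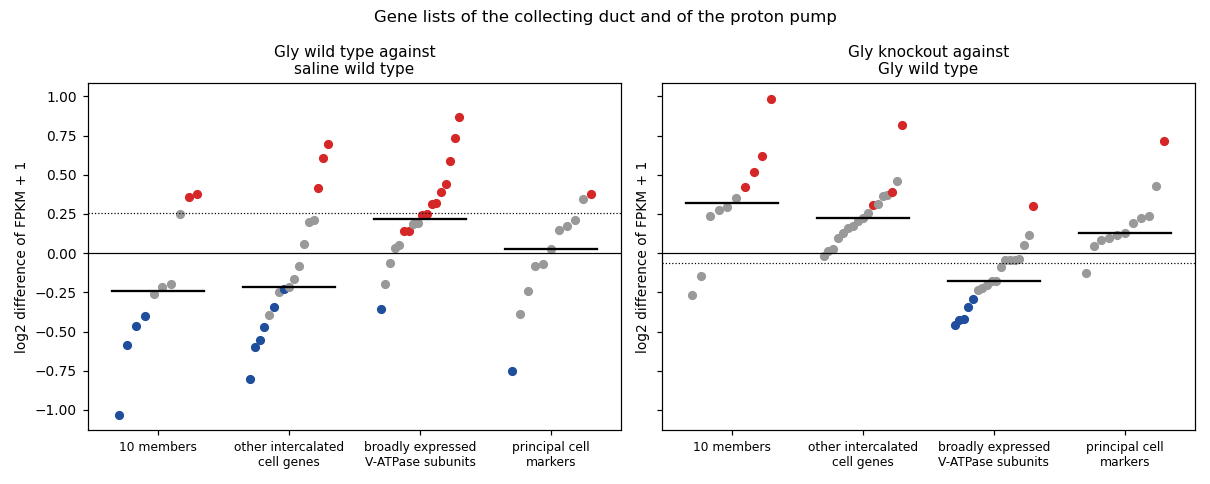
Log2 differences of FPKM + 1 for the 10 genes and 3 related lists in 2 comparisons that share the Gly wild-type libraries; each point is a tested gene, coloured where its limma adjusted p is under 0.05 (blue lower, red higher), thick bars are list medians and the dotted line is the median of all tested features. In Gly wild type the median lies at -0.24 for the 10 genes and at 0.22 for the broadly expressed V-ATPase subunits, or at -0.54 and -0.096 after median-ratio scaling.

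Gly knockout was then set against Gly wild type. This comparison shares the Gly wild-type libraries with the preceding one, so low values there enter both. Atp6v0a4 was at 31.7, 57.5 and 62.1 FPKM in Gly wild type and at 72.2, 102 and 142 in Gly knockout, with no overlap. The knockout mean was 1.99 times the wild-type mean, and the log2 difference was 0.98 ± 0.15 (SE, limma adjusted p = 4.75e-05). Slc4a9 was at 6.78, 9.97 and 14.2 FPKM in wild type and at 9.63, 16.9 and 24.0002 in knockout (log2 difference 0.62 ± 0.18 SE, limma adjusted p = 0.0107). Knockout libraries 1 and 6 lay within the wild-type range for this exchanger and the other 4 lay above it.

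Slc4a1 was at 2.59, 4.55 and 5.33 FPKM in Gly wild type and at 3.96, 6.85 and 8.44 in Gly knockout (log2 difference 0.52 ± 0.18 SE, limma adjusted p = 0.0316). Atp6v1b1 was at 23.3, 30.4 and 38.2 in wild type and at 30.6, 46.2 and 50.3 in knockout (0.43 ± 0.14, limma adjusted p = 0.0217). Both pairs of groups overlapped through knockout libraries 1 and 6.

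The other 6 genes did not pass the test. Slc26a4 was at 0.35 (limma adjusted p = 0.0517), Rhcg at 0.29 (0.0892), Aqp6 at 0.28 (0.190), Atp6v0d2 at 0.24 (0.163), Atp6v1g3 at -0.15 (0.392) and Foxi1 at -0.26 (0.124). Thus 4 of the 10 were higher in Gly knockout and 0 lower, beside 8.37% and 21.4% of all tested features. The median difference was 0.32 over the 10 genes and -0.063 over all tested features. After median-ratio scaling 7 were higher, with Slc26a4, Atp6v0d2 and Rhcg added, and 0 lower, beside 13% and 15.4% of features. Only Atp6v0a4 was higher without overlap and 0 genes were lower without it, beside 2.4% and 6.3% of features.

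These differences varied in how far they held. Fitted on the 12 Gly libraries alone, Atp6v0a4 was called (adjusted p = 0.00406) and Slc4a9 (0.0534), Slc4a1 (0.0598) and Atp6v1b1 (0.0676) were not. Leaving out Gly knockout library 2, 3 or 4 left 2 genes called, Atp6v0a4 and Slc4a9. Slc4a1 was also not called without Gly knockout library 5 or Gly wild-type library 1 or 5, nor Atp6v1b1 without Gly wild-type library 5. Leaving out Gly knockout library 6 gave 6, with Slc26a4 (0.44, adjusted p = 0.0161) and Rhcg (0.37, 0.0275) added. Without Gly wild-type libraries 1 and 5, Atp6v0a4 (0.77, adjusted p = 0.000141) and Slc4a9 (0.51, 0.0410) were called, Slc4a1 (0.32, 0.173) and Atp6v1b1 (0.31, 0.0954) were not, and Foxi1 was called lower (-0.34, 0.0440). Gly knockout libraries stood apart from each other: library 4 had the highest value of 9 of the 10 genes, and libraries 1 and 6 had the lowest value of 5 each.

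Of the other intercalated cell genes, 3 of 17 were higher in Gly knockout than in Gly wild type and 0 were lower (median 0.22). Over all tested features 8.37% were higher and 21.4% lower. After median-ratio scaling 6 of the 17 were higher and 0 lower, beside 13% and 15.4% of features. Called before that scaling were Oxgr1 (0.82, adjusted p = 0.000295), Slc26a11 (0.31, adjusted p = 0.0184), an anion transporter, and Kit (0.39, adjusted p = 0.0433), a receptor kinase found in intercalated cells. Of the 18 broadly expressed V-ATPase subunits, 1 was higher and 5 were lower (median -0.18), beside the same 8.37% and 21.4% of features. After median-ratio scaling 1 was higher and 3 were lower, beside 13% and 15.4%. The count of lower subunits thus lay near that of the whole table. Those lower before that scaling included Atp6v1c1 (-0.42, adjusted p = 4.53e-05), Atp6v0b (-0.42, adjusted p = 0.00442), Atp6v0e (-0.29, adjusted p = 0.00975) and Atp6v0a1 (-0.34, adjusted p = 0.0142). Of the principal cell markers 1 of 11 was higher, Aqp4 (0.71, adjusted p = 0.0233), and 0 were lower, near the share of all features. After median-ratio scaling 2 were higher and 0 lower.

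Gly knockout was also compared with saline wild type, groups in which all libraries expressed Y-linked genes. Slc4a1 was lower in Gly knockout (log2 difference -0.51 ± 0.18 SE, limma adjusted p = 0.0225), at 3.96 to 8.44 FPKM against 8.08 to 10.2, and 1 knockout library reached into the wild-type range. Atp6v0d2 was higher without overlap, at 12.6 to 23.1 FPKM against 8.56 to 11.96 (0.61 ± 0.13, limma adjusted p = 0.000434). Atp6v0a4 was higher as well (0.40 ± 0.15, limma adjusted p = 0.0333). Without Gly knockout library 6, Slc4a1 was not called (-0.40, adjusted p = 0.0700) and Atp6v1g3 was (0.30, 0.0480). Atp6v0a4 was not called without saline wild-type library 1, 2 or 3 or Gly knockout library 3, 4 or 5, at 0.30 to 0.39 (adjusted p = 0.0522 to 0.101), while Atp6v0d2 was called without any 1 library.

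The median of all tested features shifted by 0.20 in this comparison. After median-ratio scaling Slc4a1 was at -0.74 (adjusted p = 0.000761), Atp6v0d2 at 0.38 (0.00877) and Atp6v0a4 at 0.14 (0.451, not called). The other 7 genes lay between -0.012 and 0.21 and were not called, with 95% intervals that reached from -0.28 to 0.52. In all, 2 genes were higher and 1 lower, beside 38.9% and 6.72% of all tested features. After median-ratio scaling 1 was higher and 1 lower, beside 16.5% and 16.7% of features. Groups did not overlap in 1 gene, higher, and in 0 lower, beside 28% and 3.33% of features. Of the erythroid markers 5 of 6 tested were lower in this comparison too, and of the macrophage markers 9 of 10 were higher; their part in the values of Slc4a1 and Atp6v0d2 was not tested.

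Ratios within a library do not depend on how libraries are scaled, and the clearest was the share of the a4 subunit among the 4 genes for the pump's a subunit (Atp6v0a1, Atp6v0a2, Tcirg1 and Atp6v0a4). Atp6v0a4 made up 66.2%, 68.9% and 71.4% of their summed FPKM in saline wild type (lowest, median and highest library), 45.0%, 56.2% and 58.9% in Gly wild type, 70.3%, 73.4% and 77.4% in saline knockout, and 66.4%, 74.3% and 82.3% in Gly knockout. Gly wild type lay below the other 3 groups in every library. In Gly wild type the numerator fell while Tcirg1 went from 5.82 ± 0.695 to 11.8 ± 3.39 FPKM and Atp6v0a1 from 13.5 ± 1.12 to 17.2 ± 3.04 (SD, n = 6 each), and macrophage and proximal tubule markers moved as given above. Tcirg1 was at 8.03 ± 0.784 and Atp6v0a1 at 13.2 ± 1.26 in Gly knockout.

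The kidney isoforms of the other subunits gave smaller shares with overlapping groups. Atp6v1b1 made up 26.7% ± 1.73 of B subunit FPKM (with Atp6v1b2) in saline wild type, 22.3% ± 3.32 in Gly wild type, 32.9% ± 5.15 in saline knockout and 26.5% ± 4.82 in Gly knockout (SD, n = 6 each). Atp6v0d2 made up 16.4% ± 1.53, 18.1% ± 3.71, 21.7% ± 3.55 and 23.3% ± 5.26 of d subunit FPKM (with Atp6v0d1) in the same order. Atp6v1g3 made up 13.4% ± 1.36, 13.2% ± 0.680, 16.3% ± 2.18 and 13.5% ± 1.87 of G subunit FPKM (with Atp6v1g1). The B1 and G3 shares had their highest means in saline knockout, and the G3 means of the other 3 groups lay closer together than 1 SD.

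Slc4a1 divided by Slc26a4 sets a single gene of type A cells against a single gene of type B and non-A non-B cells. It was 0.341, 0.560 and 0.582 in saline wild type, 0.158, 0.247 and 0.349 in Gly wild type, 0.310, 0.431 and 0.958 in saline knockout, and 0.250, 0.291 and 0.362 in Gly knockout. The Gly groups overlapped the saline groups only at the lowest saline libraries, and Gly wild type and Gly knockout overlapped each other. Other genes of these cells did not follow the ratio in Gly wild type. Aqp6 and Atp6v0d2, grouped here with type A, had log2 changes of -0.20 (not called) and 0.38. Slc4a9, of type B cells, was at -0.46, and Insrr fell too. Slc4a1 is also a red cell gene, and 5 of 6 tested erythroid markers were lower under Gly in either genotype. The part of red cells in the ratio was not tested.

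**Figure D4:**
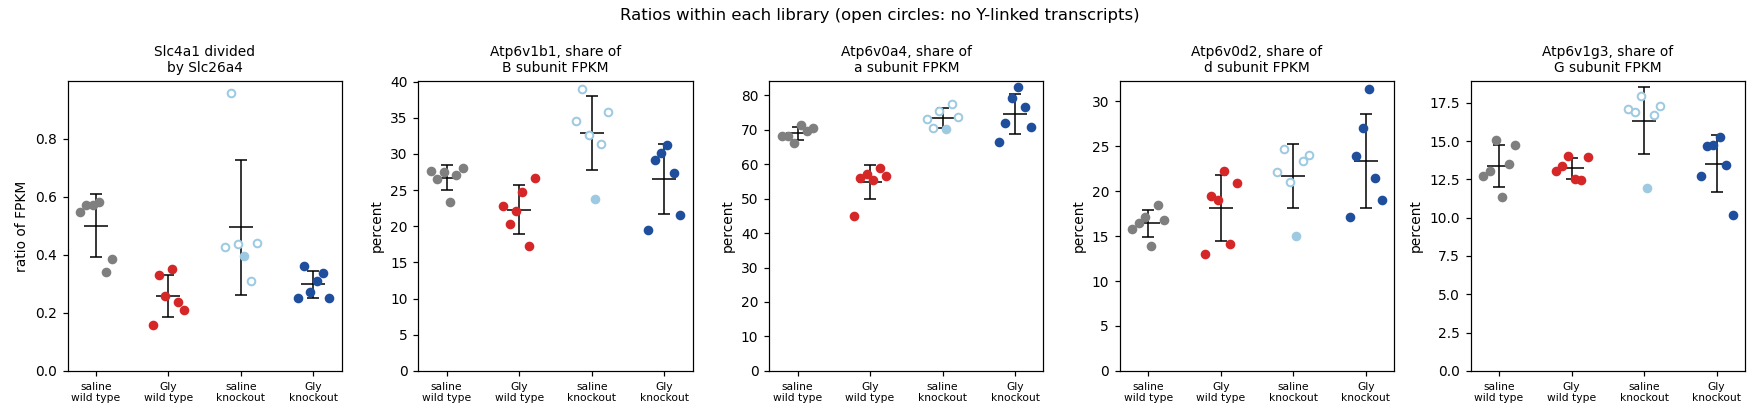
Ratios of FPKM within each library, by group: Slc4a1 divided by Slc26a4, and the percentage of each pump subunit's FPKM held by its kidney isoform; bars are means and 1 SD (n = 6), and open circles lack Y-linked transcripts. The a4 share in Gly wild type, 45.0% to 58.9%, lies below all other libraries.

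Saline knockout showed higher mean levels than saline wild type in all 10 genes, by 0.25 to 0.43 on the log2 scale. The median difference was 0.37 over the 10 genes and 0.081 over all tested features. Related lists had similar medians: 0.33 for other intercalated cell genes, 0.32 for principal cell markers and 0.42 for distal convoluted tubule markers. The medians were 0.17 for both thick limb and proximal tubule markers and 0.019 for the broadly expressed V-ATPase subunits. Rhcg was called, at 36.1, 52.7 and 58.4 FPKM against 31.6, 38.3 and 47.7 (log2 difference 0.41 ± 0.13 SE, limma adjusted p = 0.0426), and not after median-ratio scaling (0.31, adjusted p = 0.0860). The other 9 missed the threshold, Atp6v1b1 most narrowly (0.41, adjusted p = 0.0543). In all, 1 of the 10 was called higher and 0 lower, beside 6.92% and 3.67% of all tested features. Saline knockout library 4, which alone in its group expressed Y-linked genes, had the lowest value of the 6 in 9 of the 10 genes, the exception being Atp6v0a4, and in 32.7% of all tested features. After median-ratio scaling 0 were called, beside 4.95% of features higher and 5.71% lower. Without library 4, 6 of the 10 genes were called higher and 0 lower, beside 11% and 5.29% of features. Without the other 5 libraries, on 1 remaining saline knockout library, 7 of the 10 differences were below 0.

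Gly against saline within knockout had 4 genes lower and 0 higher, beside 5.72% and 23.7% of all tested features. After median-ratio scaling 5 were lower, with Slc26a4 (-0.38, adjusted p = 0.0382) added, and 0 higher, beside 11.9% and 12.4% of features. Slc4a1 was at 7.85, 11.8 and 20.5 FPKM under saline and at 3.96, 6.85 and 8.44 under Gly (log2 change -0.80 ± 0.18 SE, limma adjusted p = 0.00154). Atp6v1b1 (-0.39, limma adjusted p = 0.0342), Foxi1 (-0.39, 0.0266) and Rhcg (-0.38, 0.0290) were lower too. Groups overlapped in all 10 genes, beside 15.5% of features higher and 2.1% lower without overlap. Erythroid markers were lower in 5 of 6 tested here as well. With saline knockout library 4 as the only saline library, Slc4a1 was at -0.28 and Foxi1, Atp6v1b1 and Rhcg were at 0.091, 0.080 and 0.084. Leaving out single libraries left 1 to 4 genes called, with 1 after the loss of saline knockout library 1 or Gly knockout library 1 or 6, and 2 after that of saline knockout library 2, 3, 5 or 6.

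The interaction asked whether the response to Gly differed between genotypes. It was called for Atp6v0a4 (0.69 ± 0.21 SE, limma adjusted p = 0.0186), whose log2 change was -0.58 in wild type and 0.11 in knockout, for Foxi1 (-0.64 ± 0.18, limma adjusted p = 0.0125), at 0.25 and -0.39, and for Atp6v1g3 (-0.47 ± 0.17, limma adjusted p = 0.0485), at 0.36 and -0.11. These were 1 higher and 2 lower of 10, beside 6.28% and 20.3% of all tested features. After median-ratio scaling Atp6v0a4 (0.85, adjusted p = 0.00255) and Foxi1 (-0.49, 0.0246) were called and Atp6v1g3 (-0.31, 0.286) was not, beside 10.7% of features higher and 10.9% lower. Atp6v1g3 also lost its call in 18 of the 24 fits that left out 1 library. Without Gly wild-type libraries 1 and 5, Atp6v0a4 was at 0.47 (adjusted p = 0.0342), Foxi1 at -0.71 (0.00294) and Atp6v1g3 at -0.34 (0.101, not called). Slc4a1 was at 0.23 (limma adjusted p = 0.531), with a 95% interval from -0.29 to 0.75. With saline knockout library 4 alone, Atp6v0a4 was at 0.84, Foxi1 at -0.16 and Atp6v1g3 at -0.0067.

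Within groups the 10 genes varied together from library to library. After group means were subtracted, Pearson r between pairs of the genes ran from -0.16 to 0.91 with a median of 0.64 over the 18 libraries of the other groups, saline knockout left out, and was above 0 in 42 of 45 pairs. Atp6v1b1 and Slc4a9 were closest (r = 0.91). The 3 pairs below 0 each held Atp6v1g3, with Atp6v0a4 (-0.16), Aqp6 (-0.14) and Slc4a1 (-0.05). All points share libraries and the scaling of each library, so these values are descriptive. Without such values for other sets of genes, they do not set the 10 apart.

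By the same measure, genes among the 5 most like the mean of the 10 were Rap1gap (r = 0.91), Hk1 (0.89), Scnn1a (0.88), a subunit of the epithelial sodium channel, and Gpx6 (0.88). Those most like Slc4a1 were Scn4b (0.90), Cyfip2, Pcsk7, Mfsd4a and Slc12a1 (0.89 each). Those most like Slc26a4 were the ammonia transporter gene Rhbg (0.82), Hepacam2 (0.77), Plpbp (0.76), Atp6v1c2 (0.75), a C subunit of the pump, and Tldc2 (0.74). Rhbg, Hepacam2 and Atp6v1c2 stand in the list of other intercalated cell genes.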

How the data were processed

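Kidney RNA of 24 libraries, 6 in each of 4 groups taken from the sample titles, was analysed. The authors deposited 1 table of FPKM with a column per library. Libraries came from 1 µg of total RNA with the TruSeq kit, per the labels' protocols. The submitters' processing notes list Bowtie 0.12.2, mm8 and mm9 without saying what each was for. The FPKM program, the annotation, the use of strand and the depth: not given in the sources used here.

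log2(FPKM + 1) was fitted with limma 3.58.1 (intensity trend) in R 4.3.3, all 24 libraries in 1 fit with a mean per group. Tested were 13020 of 28450 features, those reaching 1 FPKM in 6 or more libraries. Calls had a two-sided Benjamini-Hochberg adjusted p under 0.05 over all tested features of a contrast. Changes on this scale understate those of low genes. The 10 genes, the other lists, the 4 motifs and the rule for named genes (all 10; per list up to 4 of smallest p; pump paralogs; the 5 most correlated genes averaging at least 5 FPKM) were chosen with earlier results of these data known. Lists for thick limb, distal convoluted and proximal tubule were also fixed: in Gly wild type 2 of 5, 4 of 5 and 5 of 8 tested genes were lower and 1, 1 and 0 higher. Of 7 macrophage and osteoclast-type lysosome genes 5 were tested, 4 higher and 0 lower. Of 4 Y-linked genes 0 were called there. The test was checked on simulated data. Slc4a9 and others without a promoter entry were not analysed for sequence, and some genes that the rule names are not reported here. Alternatives were other pseudocounts, filters, scalings, weights, a replicate block and left-out libraries.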

Additional observations from a re-analysis of the deposited data

Results flagged for a closer look

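In groups of 6 libraries, a value was singled out where its gap to the nearest library, divided by the group's range, exceeded Dixon's critical value at 95% confidence. This was examined in 60 groups (10 genes and 5 ratios in 4 groups), of which chance would single out about 1 in 20, and 7 were found. In saline knockout these were Slc4a1 in library 2 at 20.5 FPKM, the ratio of Slc4a1 to Slc26a4 in library 2 at 0.958, Rhcg in library 4 at 36.1 FPKM and the Atp6v1g3 share of G subunit FPKM in library 4 at 11.9%. In the wild type they were Slc26a4 in Gly library 6 at 23.6 FPKM, the Atp6v0a4 share of a subunit FPKM in Gly library 1 at 45.0% and the Atp6v1b1 share of B subunit FPKM in saline library 4 at 23.3%. Saline knockout library 2 also had the highest Alas2 of all libraries, at 19.4 FPKM. The part of red cells in its Slc4a1 value was not tested.

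The response to Gly differed between genotypes by limma's interaction test for Foxi1 (-0.64), Atp6v1g3 (-0.47) and Atp6v0a4 (0.69), as log2 differences, knockout minus wild type. All 3 rest on the saline knockout group, in which 5 of 6 libraries lack Y-linked transcripts. With library 4 as the only saline knockout library, Foxi1 was at -0.16, Atp6v1g3 at -0.0067 and Atp6v0a4 at 0.84. A single library has no spread of its own, so whether these differ from 0 cannot be judged.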

How the results depend on the processing

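Of 1560 alternative values for the 10 genes in 6 contrasts, 1400 kept their side of the threshold, 104 lost a call, 52 gained one and 4 turned the sign of a called value. Another 77 changed sign without a call on either side and are counted among the 1400. The 4 turned values all came with saline knockout library 4 as the only saline knockout library: Foxi1 (0.091), Atp6v1b1 (0.080) and Rhcg (0.084) for Gly in knockout, and Rhcg (-0.055) for knockout against wild type under saline. The fit in that setting assumes that the lone library varies like the other groups. A call lost there cannot tell a smaller difference from a less precise one.

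For Gly knockout against Gly wild type, 4 genes were called, 2 with no filter, 7 with median-ratio scaling or quantile normalization, and 1 with only the libraries compared. For Gly against saline in knockout, 4 were called, and 1 with no filter. For Gly knockout against saline wild type, 3 were called, and 1 with no filter. For knockout against wild type under saline, 1 was called, 0 with no filter, median-ratio scaling, quantile normalization or the replicate block, 6 with only the libraries compared and 10 with array weights. Of the 13020 tested features, 901 were called higher and 478 lower in that contrast. These became 2025 and 721 with only the libraries compared, and 4215 and 1345 with array weights. Leaving out 1 library at a time gave 5 to 8 genes for Gly in wild type, 2 to 6 for Gly knockout against Gly wild type, 1 to 4 for Gly in knockout, 0 to 6 for knockout under saline, 2 to 3 for Gly knockout against saline wild type and 2 to 3 for the interaction. Under saline, 0 were left without saline wild-type library 1, 3, 4 or 5 or saline knockout library 1, 2, 3, 5 or 6. The cause was not tested.

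Samples with the same number did not deviate together (36 pairs, r from -0.37 to 0.30, median -0.02, and 1 of 24 libraries correlated best with its own number), and the labels give no pairing. The replicate block moved no other count of genes by over 1.5 times. Features higher and lower for Gly in wild type numbered 6537 and 1728, and 3771 and 3685 with median-ratio scaling or 3674 and 4103 with quantile normalization. For Gly knockout against Gly wild type they numbered 1090 and 2792, and 1693 and 2001, or 2032 and 2236. Counts of all tested features that moved by over 1.5 times were, for knockout under saline, 1379 against 5560 with array weights, 2746 with only the libraries compared, 817, 843 and 832 without saline knockout library 1, 2 or 6, 2116 without library 4 and 0 with library 4 alone; for Gly in knockout, 3837 against 6058 with array weights and 741 with library 4 alone; for Gly knockout against Gly wild type, 3882 against 2168 with only the libraries compared; and for the interaction, 3457 against 6896 with array weights, 5719 without wild-type Gly libraries 1 and 5, and 10 with library 4 alone. With all 24 libraries in place of 18, Hk1 and Scnn1a stayed among the 5 genes most like the 10, and with median-ratio scaling Scnn1a and Gpx6 did. The unknown depth leaves the counting error of each value unknown.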
